A study of Mus musculus with 18 samples.

Results

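The genes described are Plau, Plaur and Plat, the 3 genes of the plasminogen activator system that were picked by name from the 49845 gene names of each library. All 3 were among the 16718 genes tested, which had at least 1 TPM (a share of all transcripts, corrected for transcript length) in at least 3 libraries. The samples were IMCD3 cells, an established mouse kidney line from the inner medullary collecting duct, with the label strain background Tg(SV40E)bri/7, used at passages 10 to 15. There were 6 groups of 3 libraries of total RNA: wild-type (WT) cells, Ift140 knockout cells and Dync2h1 knockout cells, each kept for 3 h in microslide chambers either without flow (static) or under fluid shear of about 0.7 dyne/cm2 (flow). Ift140 and Dync2h1 encode parts of the machinery that carries cargo back from the tip of the primary cilium, and the study compared ciliated with non-ciliated cells under flow. The labels do not say how many clones stand for each knockout or whether the replicates were separate cultures. The p-values therefore measure only the spread between these samples, which may be technical.

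Urokinase (Plau) and tissue-type plasminogen activator (Plat) are secreted serine proteases that cleave plasminogen into plasmin, a broad protease that degrades fibrin and matrix proteins. The urokinase receptor (Plaur), held in the cell membrane by a lipid anchor, binds urokinase and concentrates plasmin formation at the cell surface. Renal tubule cells are a known source of urokinase.

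All 3 genes are protein coding and lie on the plus strand in the GENCODE vM21 annotation of GRCm38. Plau spans chromosome 14 from 20836660 to 20843385, Plaur chromosome 7 from 24462484 to 24475968, and Plat chromosome 8 from 22757727 to 22782844. Of the 3 genes, Plaur was matched in the promoter table used here, and its promoter is shown because genes of AP-1, the Fos and Jun transcription factors, are described further on. The 250 bases before a RefSeq start of Plaur (GRCm38.p6, chr7:24462233-24462482, plus strand) are printed with the letters that match the AP-1 motif TGANTCA in capitals.
Plaur promoter: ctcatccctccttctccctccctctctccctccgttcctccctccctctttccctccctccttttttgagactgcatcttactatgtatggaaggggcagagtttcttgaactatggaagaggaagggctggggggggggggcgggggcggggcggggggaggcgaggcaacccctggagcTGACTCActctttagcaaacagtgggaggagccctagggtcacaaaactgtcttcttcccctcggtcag
Both strands were searched for 3 motifs. TGANTCA was found once, 69 to 63 bases before the start, and 6.75% of the 32851 RefSeq promoter windows of this length hold it. GGGCGG, the core of the GC box, was found 3 times, at 111 to 106, 105 to 100 and 100 to 95 bases before the start, the last 2 sharing a base, and 32.7% of the windows hold it. TGACGTCA, the cyclic AMP response element, was not found and is held by 1.55% of the windows. These matches are letters only and show no binding.

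As a check of the labels, Ift140 was at 16.5, 19.5 and 18.7 scaled TPM in static WT cells, and static Ift140 knockout libraries held 6.26, 6.44 and 7.45. Ift140 knockout libraries under flow held 7.65, 8.53 and 15.4, so the library labelled replicate 3 of that group lay near the WT level. That library stood apart in other ways too. Dync2h1 in the same group was at 22.9, 28.5 and 42.3, the last in replicate 3. It also held the most genes at 1 TPM or more, 16076, with 15397 in the next library. The cause was not tested. Fitted differences, means and ratios of the 3 genes that rest on the Ift140 knockout under flow are also given without this library. Flow calls of pathway genes and neighbours that change without it are given too. Markers are not given without it, nor are differences of the flow response for other genes. Dync2h1 was at 33.7 to 45.4 in static WT and at 9.55 to 15.4 in the static Dync2h1 knockout. Krt8 and Krt18, keratins of simple epithelia, stood at 1134 to 2315 and 626 to 1413 scaled TPM over the 18 libraries. Of 13 markers of the collecting duct and renal epithelium, 5 were under 1 TPM in every library, among them Aqp2 and Avpr2, the water channel and the vasopressin receptor that define principal cells. All 5 endothelial markers were under 1 TPM in every library. Of 5 leukocyte and macrophage markers, Adgre1 was at 0 in all 18 libraries, while Csf1r was at 5.64 to 14.6 TPM, Cd68 at 1.98 to 7.35 and Ptprc at up to 1.78. The sum of these 5 was 10.8 to 15.7 TPM in WT, 12.8 to 22.4 in the Ift140 knockout and 13.0 to 18.2 in the Dync2h1 knockout. Of 5 fibroblast markers, 4 were under 1 TPM in every library and Col1a1 reached 4.32, and their sum ran from 0.181 to 4.47. The summed epithelial markers were higher under flow, at 2448 to 2562 against 3508 to 3603 in WT, 3158 to 3457 against 3643 to 4303 in the Ift140 knockout and 3146 to 3262 against 4209 to 4394 in the Dync2h1 knockout. Krt8 and Krt18 made up most of these sums and rose in each genotype (0.32 to 0.70, limma adjusted p from 1.42e-05 to 0.00720), and they were the 2 of 8 tested epithelial markers that did. Cdh16 and Pax2 fell in WT (-0.21 and -1.39, adjusted p of 0.0275 and 0.0208), Hoxb7 in the Ift140 knockout (-0.48, adjusted p = 0.00438) and Hoxb7 and Pax8 in the Dync2h1 knockout (-0.50 and -0.75, adjusted p of 0.00272 and 0.0151). Ptprc fell in WT (-1.05, adjusted p = 0.00237), and Col1a1 rose in the Ift140 knockout (1.03, adjusted p = 0.0314). The part of these markers in the results on Plau, Plaur and Plat was not tested.

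All 3 genes were well expressed, and all 3 rose under flow in every genotype, with a fragile call for Plau in the Ift140 knockout. By median rank among the 49845 gene names, Plat was the highest, at 569 in static and 226 in flow libraries, followed by Plau at 1477 and 774 and Plaur at 4545 and 1002. In bulk RNA, a change in the level per cell and a change in the share of cells that express a gene cannot be told apart.

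Plau, which encodes urokinase, was at 63.3, 61.8 and 77.03 scaled TPM in static WT libraries and at 227, 179.7 and 192 under flow. In the Ift140 knockout it was at 111, 107 and 109.9 static and at 143, 158 and 126 under flow. In the Dync2h1 knockout it was at 243, 259 and 273 static and at 404, 347 and 378 under flow. Static and flow libraries did not overlap in any genotype, and in the Ift140 knockout the gap was narrow, the lowest flow library standing 1.13 times above the highest static one. The static Dync2h1 knockout libraries all lay above the WT libraries under flow. On the log2(scaled TPM + 1) scale, the flow response was 1.55 (SE 0.10, 2.94-fold) in WT with a limma adjusted p of 6.08e-08. It was 0.37 (SE 0.10, 1.29-fold) in the Ift140 knockout with adjusted p = 0.0226, and 0.54 (SE 0.10, 1.45-fold) in the Dync2h1 knockout with adjusted p = 0.00186. The Plau call in the Ift140 knockout is fragile. It was lost when the spread was taken from the compared groups alone (adjusted p = 0.106), when the scaling factors came from all gene names (0.35, adjusted p = 0.0508), and without Ift140 knockout static replicate 2 (0.34, adjusted p = 0.0849), static replicate 3 (0.38, 0.0504), flow replicate 1 (0.37, 0.0538) or flow replicate 2 (0.30, 0.0810). Without the library labelled flow replicate 3 it was 0.46 with adjusted p = 0.00931.

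Plat, which encodes the tissue-type activator, was at 192, 171 and 173 scaled TPM in static WT libraries and at 622, 474 and 493 under flow. Libraries of the Ift140 knockout held 250.2, 237 and 218 static and at 514, 525 and 415 under flow. Libraries of the Dync2h1 knockout held 326.5, 307 and 301 static and at 840.2, 772 and 817 under flow. Every flow library lay above every static library of any genotype. The log2 response was 1.55 (SE 0.10, 2.93-fold) in WT with a limma adjusted p of 6.08e-08, 1.03 (SE 0.10, 2.05-fold) in the Ift140 knockout with adjusted p = 6.35e-06 (1.14 without the library labelled replicate 3, adjusted p = 2.73e-06) and 1.38 (SE 0.10, 2.59-fold) in the Dync2h1 knockout with adjusted p = 2.41e-07.

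Plaur, which encodes the receptor, was at 39.5, 33.9 and 27.9 scaled TPM in static WT libraries and at 222, 159 and 154 under flow. The Ift140 knockout had levels of 40.0, 36.6 and 33.6 static and at 161, 152 and 134 under flow. The Dync2h1 knockout had levels of 54.8, 50.3 and 52.2 static and at 247, 236 and 220.3 under flow. Here too every flow library lay above every static library of any genotype. The log2 response was 2.36 (SE 0.14, 5.13-fold) in WT with a limma adjusted p of 9.59e-09, 1.99 (SE 0.14, 3.98-fold) in the Ift140 knockout with adjusted p = 8.82e-08 (2.07 without the library labelled replicate 3, adjusted p = 3.78e-07) and 2.14 (SE 0.14, 4.41-fold) in the Dync2h1 knockout with adjusted p = 3.39e-08. Ordered from the largest rise down, Plaur ranked 22 of 16718 genes in WT, 43 in the Ift140 knockout and 29 in the Dync2h1 knockout. Plat ranked 83, 258 and 103, and Plau 82, 2464 and 1201.

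**Figure D1:**
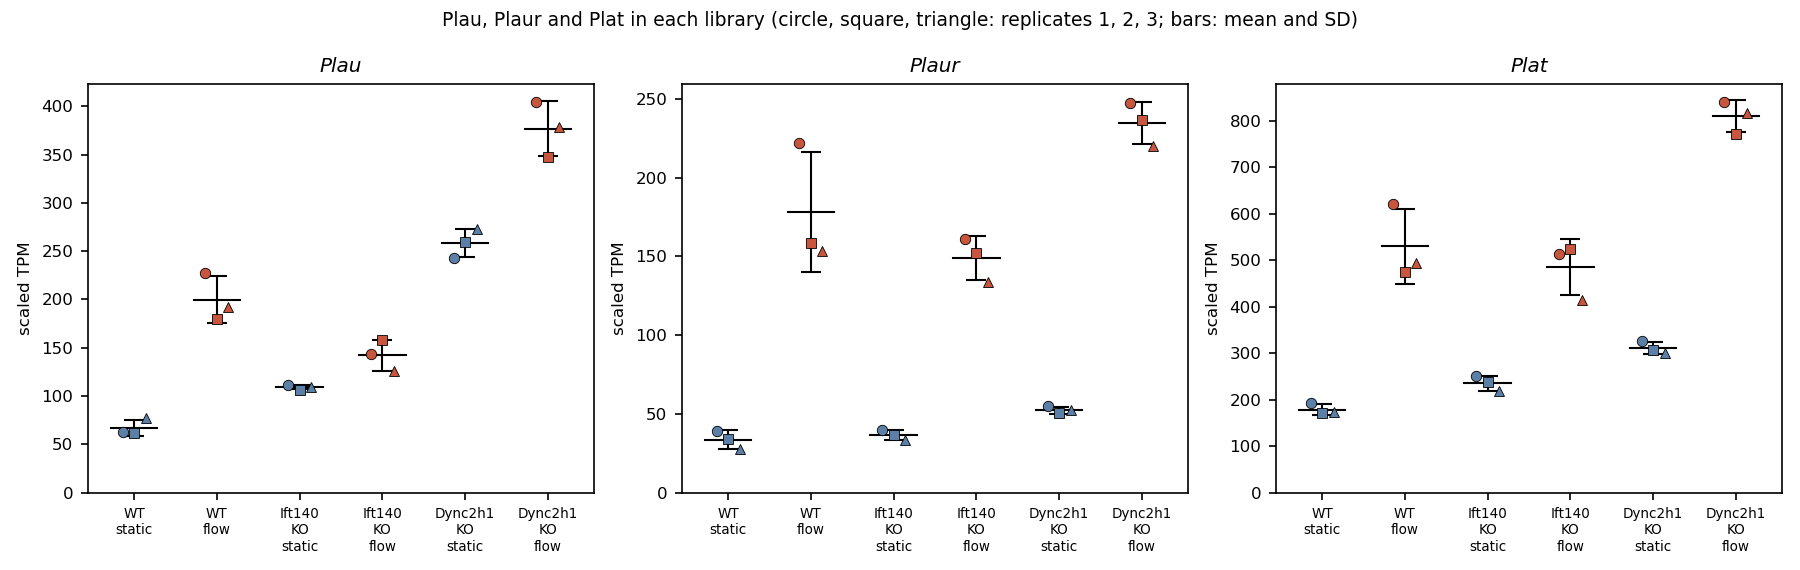
Scaled TPM of Plau, Plaur and Plat (vertical axes, linear from 0) in the 6 groups (horizontal axis), each library as a point with its replicate number as the symbol, and the mean and SD as bars. Flow libraries lie above the static libraries of their genotype in every panel, and for Plau the static Dync2h1 knockout (243 to 273) lies above WT under flow (179.7 to 227).

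The background of these calls is broad. In WT, 3 of the 3 genes rose, against 10.2% of all genes tested. In the Ift140 knockout 3 of 3 rose against 9.21%, counting the fragile call of Plau, and in the Dync2h1 knockout 3 of 3 against 10.8%. Lower calls made up 10.3%, 8.27% and 8.15% of all genes in the same order. Averaged over the 3 genotypes, the log2 response was 0.82 (SE 0.06) for Plau, 1.32 (SE 0.06) for Plat and 2.16 (SE 0.08) for Plaur, with limma adjusted p of 3.73e-08, 1.62e-10 and 8.41e-12. With the library labelled replicate 3 of the Ift140 knockout under flow left out, these means were 0.85, 1.36 and 2.19. This mean response passed as higher for 19.3% of all genes. An exact two-sided permutation of static and flow labels within genotypes gave p = 0.00025 for each of the 3 genes, the smallest that its 8000 arrangements allow. For each gene, 9 of 9 flow libraries lay above all static libraries of their genotype. Within a single genotype, permuting 3 and 3 libraries allows no exact p under 0.1, and the smaller values there rest on the limma model.

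Within groups the 3 genes did not spread alike. The ratio of the highest to the lowest library of a group ran from 1.05 for Plau in the static Ift140 knockout to 1.45 for Plaur in WT under flow. Replicate 1 was the highest library for Plaur in 6 of 6 groups, for Plat in 5 of 6 and for Plau in 3 of 6. It was the highest for all 3 genes in WT under flow, in the Dync2h1 knockout under flow and in the static Ift140 knockout. Values with the replicate number as a block are given with the alternatives. The library labelled replicate 3 of the Ift140 knockout under flow was the lowest of its group for all 3.

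The size of the Plau response differed between genotypes. In the Ift140 knockout the log2 response of Plau was smaller than in WT, with a difference of -1.18 (SE 0.15, 95% interval -1.50 to -0.87) and a limma adjusted p of 0.00222. In the Dync2h1 knockout the difference from WT was -1.01 (SE 0.15, 95% interval -1.33 to -0.70) with adjusted p = 0.00328. Among all genes, 0.15% passed as lower in the Ift140 knockout difference and 0.305% in the Dync2h1 knockout difference. The 2 differences share the WT libraries and are not independent of each other. Between the knockouts, the Plau responses differed by 0.17 (95% interval -0.15 to 0.48, adjusted p = 0.753), so a difference of either sign is possible. With the library labelled replicate 3 of the Ift140 knockout under flow left out, the difference between the Ift140 knockout and WT was -1.10 with adjusted p = 0.00583, and that between the knockouts 0.085 with adjusted p = 0.916.

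The receptor and the tissue-type activator gave no such call. For Plaur the difference was -0.37 (95% interval -0.78 to 0.04, limma adjusted p = 0.672) in the Ift140 knockout and -0.22 (-0.63 to 0.19, adjusted p = 0.817) in the Dync2h1 knockout. For Plat it was -0.52 (95% interval -0.83 to -0.20, adjusted p = 0.286) in the Ift140 knockout and -0.18 (-0.49 to 0.14, adjusted p = 0.799) in the Dync2h1 knockout. The unadjusted interval of Plat in the Ift140 knockout lies below 0, and the difference did not pass over all genes. Between the knockouts the responses differed by 0.15 (-0.26 to 0.56, adjusted p = 0.841) for Plaur and 0.34 (0.03 to 0.66, adjusted p = 0.513) for Plat, with 0.108% of all genes called in either direction. With the library labelled replicate 3 of the Ift140 knockout under flow left out, the differences between the Ift140 knockout and WT were -0.29 (adjusted p = 0.679) for Plaur and -0.41 (adjusted p = 0.298) for Plat. Those between the knockouts were then 0.074 (adjusted p = 0.950) and 0.23 (adjusted p = 0.680). Whether Plau differs from Plaur or Plat in this respect was not tested.

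**Figure D2:**
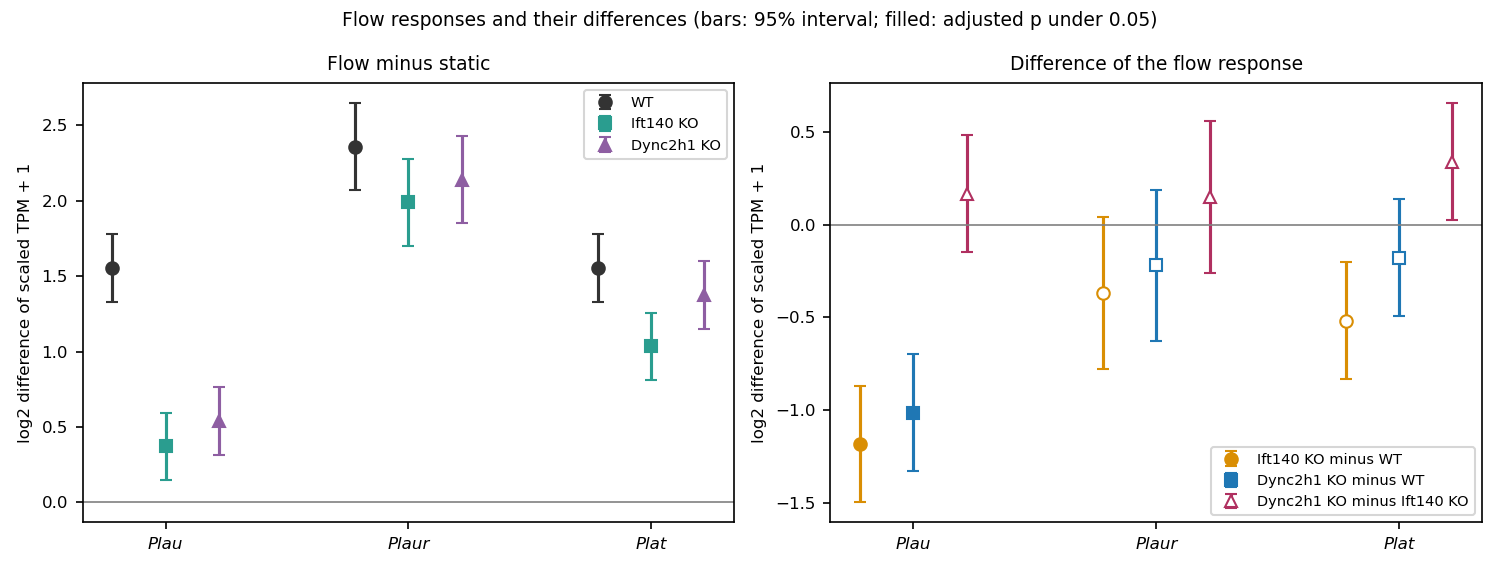
Left, log2 difference of scaled TPM + 1 between flow and static libraries for each gene and genotype; right, differences of that response between genotypes, with 95% intervals as bars and filled symbols for an adjusted p under 0.05. Plau has the lowest responses in both knockouts (0.37 and 0.54, against 1.55 in WT), and only its 2 differences from WT are filled on the right.

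The same libraries gave another picture on the linear scale. The rise of Plau under flow was 132 TPM (SE 15.0) in WT, 33.0 (SE 9.24) in the Ift140 knockout and 118 (SE 18.6) in the Dync2h1 knockout. The rise in TPM in the Dync2h1 knockout was thus near that in WT, on a static level 3.81-fold higher, while in the Ift140 knockout it was smaller on both scales. Plaur rose by 144 TPM (SE 22.3) in WT, 112 (SE 8.18) in the Ift140 knockout and 182 (SE 7.91) in the Dync2h1 knockout, and Plat by 351 (SE 46.7), 249.6 (SE 36.2) and 498 (SE 21.3). For both genes the rise in TPM was largest in the Dync2h1 knockout. Over the 2 other flow libraries of the Ift140 knockout, without the one labelled replicate 3, the rise was 41.1 TPM for Plau, 120 for Plaur and 284 for Plat. Differences between genotypes on the linear scale were not tested.

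Static levels differed most for Plau. In static culture Plau averaged 67.4 ± 8.40 scaled TPM in WT, 109 ± 2.47 in the Ift140 knockout and 259 ± 14.8 in the Dync2h1 knockout (SD, n = 3 each), and none of these groups overlapped. The log2 difference from WT was 0.70 (SE 0.10) in the Ift140 knockout with a limma adjusted p of 0.000286, and 1.93 (SE 0.10) in the Dync2h1 knockout with adjusted p = 2.62e-09, rank 48 of the 16718 genes from the top. Plat averaged 179 ± 11.6, 235 ± 16.1 and 312 ± 13.4 in the same order (SD, n = 3 each), again without overlap. Its differences from WT were 0.39 (SE 0.10, adjusted p = 0.0163) and 0.80 (SE 0.10, adjusted p = 3.81e-05). The Plat call in the Ift140 knockout was lost without WT static replicate 2 (0.36, limma adjusted p = 0.0628), WT static replicate 3 (0.37, 0.0561) or Ift140 knockout static replicate 1 (0.35, 0.0638).

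Plaur differed less between the static groups. It averaged 33.7 ± 5.78 in WT, 36.7 ± 3.25 in the Ift140 knockout and 52.4 ± 2.24 in the Dync2h1 knockout (SD, n = 3 each). The WT and Ift140 knockout ranges overlapped, with a log2 difference of 0.13 (95% interval -0.16 to 0.42, limma adjusted p = 0.566), while the Dync2h1 knockout lay above both. Its difference from WT was 0.63 (SE 0.14, adjusted p = 0.00244). In all, 2 of the 3 genes were higher than WT in the static Ift140 knockout, where 8.97% of all genes were, and 3 of 3 in the static Dync2h1 knockout, where 13.5% were. Against the Ift140 knockout, the static Dync2h1 knockout was higher for 3 of 3 genes (10.8% of all genes), by 1.23 for Plau, 0.50 for Plaur and 0.41 for Plat, with adjusted p of 5.60e-07, 0.0137 and 0.0110. That Plaur call was lost without Ift140 knockout static replicate 3 (0.44, adjusted p = 0.0548). The 2 comparisons with WT share the WT libraries.

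Under flow the Dync2h1 knockout held the highest mean level of each gene, and the Ift140 knockout the lowest. Plau averaged 199.8 ± 24.6 in WT, 142 ± 15.8 in the Ift140 knockout and 377 ± 28.6 in the Dync2h1 knockout (SD, n = 3 each). None of these groups overlapped for Plau. The Plau level fell by 0.49 (log2, SE 0.10, limma adjusted p = 0.00524) from WT to the Ift140 knockout and stood 0.92 higher (SE 0.10, adjusted p = 9.89e-06) in the Dync2h1 knockout. The order of Plau in WT and the Ift140 knockout was therefore opposite under flow and in static culture. The lower level in the Ift140 knockout under flow was -0.40 (adjusted p = 0.0219) when the library labelled replicate 3 was left out (mean of the other 2, 150.4), and it did not pass with the spread taken from the compared groups alone (adjusted p = 0.0929).

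Plat averaged 529.7 ± 80.1 in WT, 485 ± 60.5 in the Ift140 knockout and 809.95 ± 34.4 in the Dync2h1 knockout under flow (SD, n = 3 each). WT and Ift140 knockout libraries overlapped, with a difference of -0.12 (95% interval -0.35 to 0.10, limma adjusted p = 0.462). All Dync2h1 knockout libraries lay above them, with a difference from WT of 0.62 (SE 0.10, adjusted p = 0.000349). Plaur averaged 178 ± 38.2, 149 ± 13.8 and 235 ± 13.5 in the same order (SD, n = 3 each). WT replicate 1, at 222, overlapped the Dync2h1 knockout range, and WT overlapped the Ift140 knockout. The Plaur difference from WT was -0.24 (95% interval -0.53 to 0.05, adjusted p = 0.258) in the Ift140 knockout and 0.41 (SE 0.14, adjusted p = 0.0305) in the Dync2h1 knockout. With the library labelled replicate 3 of the Ift140 knockout under flow left out, that group averaged 519.7 for Plat and 157 for Plaur over 2 libraries. Its differences from WT were then -0.017 (adjusted p = 0.939) for Plat and -0.16 (adjusted p = 0.529) for Plaur.

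That last Plaur call did not hold in several settings. It was lost with the deposited scaling (0.28, limma adjusted p = 0.107), without the filter (adjusted p = 0.0671) and with only the compared groups in the fit (adjusted p = 0.0610). It was also lost without WT flow replicate 2 (0.34, 0.119) or 3 (0.32, 0.131), and without Dync2h1 knockout flow replicate 1 (0.37, 0.108) or 2 (0.41, 0.0728). By the main calls, 1 of the 3 genes was lower in the Ift140 knockout than in WT under flow, where 7.52% of all genes were, and 3 of 3 were higher in the Dync2h1 knockout, where 16.1% were. Against the Ift140 knockout, the Dync2h1 knockout under flow was higher for 3 of 3 genes (17.3% of all genes), by 1.40 for Plau, 0.65 for Plaur and 0.75 for Plat, with adjusted p of 1.18e-07, 0.00182 and 7.34e-05. With the library labelled replicate 3 of the Ift140 knockout under flow left out, these were 1.32, 0.58 and 0.64, with adjusted p of 6.97e-07, 0.00964 and 0.000267.

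From low to high, the 6 group means of Plau ran from static WT through static Ift140 knockout, Ift140 knockout under flow, WT under flow and static Dync2h1 knockout to Dync2h1 knockout under flow, and no 2 neighbours in that order overlapped. For Plaur and Plat the 3 static groups came first, in the order WT, Ift140 knockout, Dync2h1 knockout, followed under flow by the Ift140 knockout, WT and the Dync2h1 knockout. Neighbours that overlapped were static WT and static Ift140 knockout for Plaur, the Ift140 knockout and WT under flow for both genes, and WT and the Dync2h1 knockout under flow for Plaur.

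The balance of the 3 transcripts within a library shifted with both factors. For each scaled TPM of Plau there were 0.511 ± 0.135 of Plaur in static WT and 0.887 ± 0.0896 under flow (SD, n = 3). The ratio went from 0.336 ± 0.0277 to 1.05 ± 0.0796 in the Ift140 knockout and from 0.203 ± 0.0187 to 0.625 ± 0.0505 in the Dync2h1 knockout. Receptor transcripts were thus higher relative to urokinase transcripts in all flow libraries than in the static libraries of their genotype. Plat per Plau was 2.68 ± 0.398 in static WT and 2.65 ± 0.0859 under flow. It was 2.15 ± 0.144 static and 3.41 ± 0.163 under flow in the Ift140 knockout, and 1.21 ± 0.122 and 2.15 ± 0.0736 in the Dync2h1 knockout. The 2 activators thus kept their ratio in WT within the spread of the libraries, while in both knockouts Plat gained on Plau under flow without overlap. Over the 2 Ift140 knockout flow libraries other than the one labelled replicate 3, Plaur per Plau was 1.05 and Plat per Plau 3.46. These ratios are descriptions and carry no test.

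**Figure D3:**
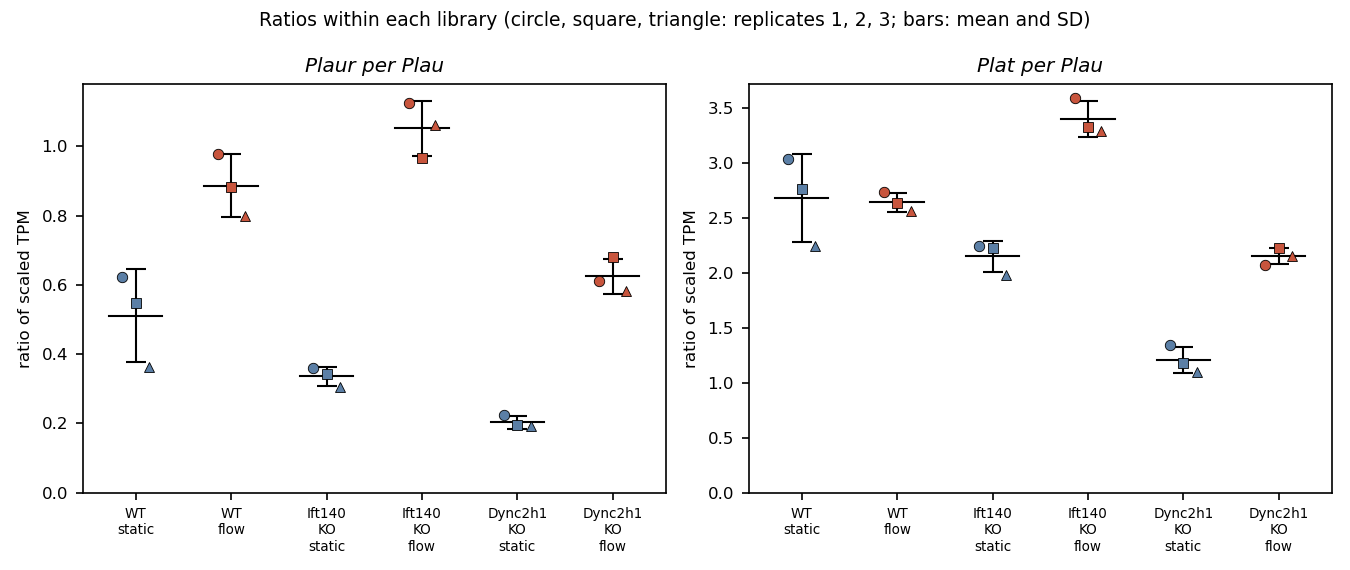
Ratios of scaled TPM within each library (vertical axes, linear from 0) for Plaur per Plau and Plat per Plau in the 6 groups, with points for libraries and bars for mean and SD. Plaur per Plau is higher under flow in every genotype, and Plat per Plau is higher under flow in the knockouts (3.41 against 2.15 and 2.15 against 1.21) and not in WT.

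Of the 7 inhibitors of the system described here, Serpini1 passed the filter. Serpine2 reached at most 2.93 TPM in any library, Serpinf2 1.8 and Serpina5 0.16, and Serpinb2 was listed at 0 throughout. Serpini1, the gene of neuroserpin, which inhibits the tissue-type activator, averaged 2.94 ± 1.13 TPM in static WT and fell by 0.61 (SE 0.21, limma adjusted p = 0.0487) under flow. This call was lost in 13 of the 18 fits that left out a library. Here and below, most of these fits left out a library outside the groups compared, which changes the fitted difference little. In the knockouts Serpini1 changes were 0.17 and -0.19, with adjusted p of 0.633 and 0.582.

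Plg, the gene of plasminogen itself, was listed at 0 in all 18 libraries. Of 19 genes for the substrate, for binding at the cell surface and for clearance, 16 were tested. In WT 4 rose, 2 fell and 10 did not pass, with a median of 0.10 against -0.01 for all genes. In the Ift140 knockout 1 rose and 2 fell (median 0.06 against 0.01), and in the Dync2h1 knockout 2 rose and 2 fell (median -0.00 against 0.01). Of all genes tested, 10.2% rose and 10.3% fell in WT. These shares were 9.21% and 8.27% in the Ift140 knockout and 10.8% and 8.15% in the Dync2h1 knockout. The counts in both knockouts and the falls in WT lie near these shares. S100a10, the partner of annexin A2 that binds plasminogen and the tissue-type activator, went from 320.7 ± 14.4 to 412.5 ± 5.17 TPM in WT, by 0.36 (SE 0.09, limma adjusted p = 0.00849). S100a10 also rose in the Dync2h1 knockout, by 0.56 (adjusted p = 0.000370), and in the Ift140 knockout its difference was 0.26 (adjusted p = 0.0614), or 0.38 (adjusted p = 0.000894) without the library labelled flow replicate 3. That was the second gene of this group to rise there in that fit. Anxa2, the gene of annexin A2, was abundant at 563 ± 20.7 TPM in static WT, and its differences of 0.27, 0.21 and 0.20 did not pass (adjusted p of 0.233, 0.400 and 0.394).

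The genes of this group that fell under flow were Itgb5 and Vldlr. Itgb5, a subunit of a vitronectin-binding integrin, fell by 0.39, 0.27 and 0.44 in WT, the Ift140 knockout and the Dync2h1 knockout, with limma adjusted p of 0.000114, 0.00327 and 3.96e-05. Vldlr, an endocytic receptor of the low-density lipoprotein receptor family, fell by 0.52, 0.35 and 0.66, with adjusted p of 0.00331, 0.0387 and 0.000599. The call of Vldlr in the Ift140 knockout was lost in 5 of the 18 fits that left out a library. Itga3 and Itgb1, the chains of an integrin that can associate with the urokinase receptor, rose by 0.54 and 0.45 in WT (adjusted p of 0.00203 and 0.00279). Itga3 also rose in the Ift140 knockout, by 0.55 (adjusted p = 0.00220), and Itgb1 in the Dync2h1 knockout, by 0.38 (adjusted p = 0.0105). Itgav, an integrin chain that binds vitronectin, rose in WT by 0.59 (adjusted p = 0.00728), with differences of 0.36 and 0.16 in the knockouts that did not pass.

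Partner proteases and their inhibitors gave 12 tested genes of 19. In WT 3 rose and 1 fell, in the Ift140 knockout 1 rose and 1 fell, and in the Dync2h1 knockout 4 rose and 1 fell, with medians of 0.12, 0.14 and 0.20 against -0.01, 0.01 and 0.01 for all genes. Of all genes tested, 10.2% rose in WT and 10.8% in the Dync2h1 knockout. The 1 of 12 that rose in the Ift140 knockout lies near the share of all genes that did (9.21%). So does the 1 of 12 that fell in each genotype (10.3%, 8.27% and 8.15%). The gene that fell in each genotype was Prss8, which encodes prostasin, a membrane-anchored serine protease that activates the epithelial sodium channel. It went from 29.8 ± 3.42 to 15.5 ± 0.359 TPM in WT (-0.89, SE 0.13, limma adjusted p = 0.000202), with differences of -1.34 (adjusted p = 5.32e-06) and -0.76 (adjusted p = 0.000908) in the Ift140 and Dync2h1 knockouts. Spint1, an inhibitor of matriptase and prostasin, rose by 0.33 in WT and 0.40 in the Dync2h1 knockout (adjusted p of 0.000605 and 0.000130). Timp1, an inhibitor of metalloproteinases, rose by 0.68 and 0.65 in the same genotypes (adjusted p of 0.00432 and 0.00673), and Timp3, another of them, by 0.78 in WT (adjusted p = 0.00399). The remaining calls were Timp2 in the Ift140 knockout (0.32, adjusted p = 0.0347) and Ctsl and St14, the genes of cathepsin L and matriptase, in the Dync2h1 knockout (0.57 and 0.31, adjusted p of 0.00708 and 0.0305). The calls of Timp2 and St14 were lost in 5 and 6 of the 18 fits that left out a library. With the library labelled replicate 3 of the Ift140 knockout under flow left out, Timp2 was at 0.25 (adjusted p = 0.116) there and Spint1 rose by 0.20 (adjusted p = 0.0169), so the count stayed at 1. Of the metalloproteinases that plasmin can activate, Mmp3 was listed at 0, and Mmp7, Mmp9, Mmp10, Mmp13 and Mmp14 stayed under 1 TPM in every library. Mmp2, another metalloproteinase of the list, was tested, reached 4.51 TPM and did not pass for flow in any genotype (-0.40 in WT, limma adjusted p = 0.257).

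Transcription factors that are known to bind the promoters of Plau or Plaur, with their relatives, rose in part under flow. Of 16 tested, 10 rose and 0 fell in WT, 8 rose and 1 fell in the Ift140 knockout, and 8 rose and 0 fell in the Dync2h1 knockout. The medians were 0.65, 0.43 and 0.57 against -0.01, 0.01 and 0.01 for all genes. Of all genes tested, 10.2%, 9.21% and 10.8% rose and 10.3%, 8.27% and 8.15% fell in the same order of genotypes. With only the compared groups in the fit, the 8 that rose in the Ift140 knockout became 3, and without the library labelled flow replicate 3 of that group 8 rose and 1 fell. Fosl1, the gene of the AP-1 subunit Fra-1, went from 2.61 ± 0.417 to 17.5 ± 2.92 TPM in WT, from 3.43 ± 0.739 to 19.0 ± 5.30 in the Ift140 knockout and from 3.73 ± 0.642 to 23.9 ± 1.14 in the Dync2h1 knockout. Its responses were 2.35, 2.16 and 2.40 (SE 0.18 each), with limma adjusted p of 2.91e-07, 1.03e-06 and 2.54e-07. Fos rose by 1.43, 1.36 and 1.97, Jun by 0.74, 0.72 and 0.91, Junb by 0.91, 0.40 and 0.60, and Fosl2 by 0.91, 0.47 and 0.76, all of them AP-1 subunits. Egr1, an early response factor, rose by 2.07, 2.27 and 1.86. Every one of these values passed, with adjusted p between 8.89e-08 for Junb in WT and 0.00348 for Fosl2 in the Ift140 knockout.

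Other members of that list passed in some genotypes. Fosb rose in WT and the Ift140 knockout (0.58 and 0.81, limma adjusted p of 0.0433 and 0.00828), and in WT the call was lost in 9 of the 18 fits that left out a library. Etv4, an ETS factor, rose in WT and the Ift140 knockout (1.06 and 0.62, adjusted p of 1.45e-05 and 0.00209) and was at 0.25 in the Dync2h1 knockout (adjusted p = 0.178), on static levels of 5.92 ± 0.490, 14.3 ± 0.243 and 32.0 ± 4.66 TPM. Ets1 fell in the Ift140 knockout by 0.27 (adjusted p = 0.0112). Rela, Klf4 and Klf2 made up the rest of the calls. Among genes with the 3-finger fold of the urokinase receptor, 3 of 7 were tested and Ly6e rose in WT (0.40, adjusted p = 0.0327), where 10.2% of all genes rose. That call was lost in 5 of the 18 fits that left out a library.

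**Figure D4:**
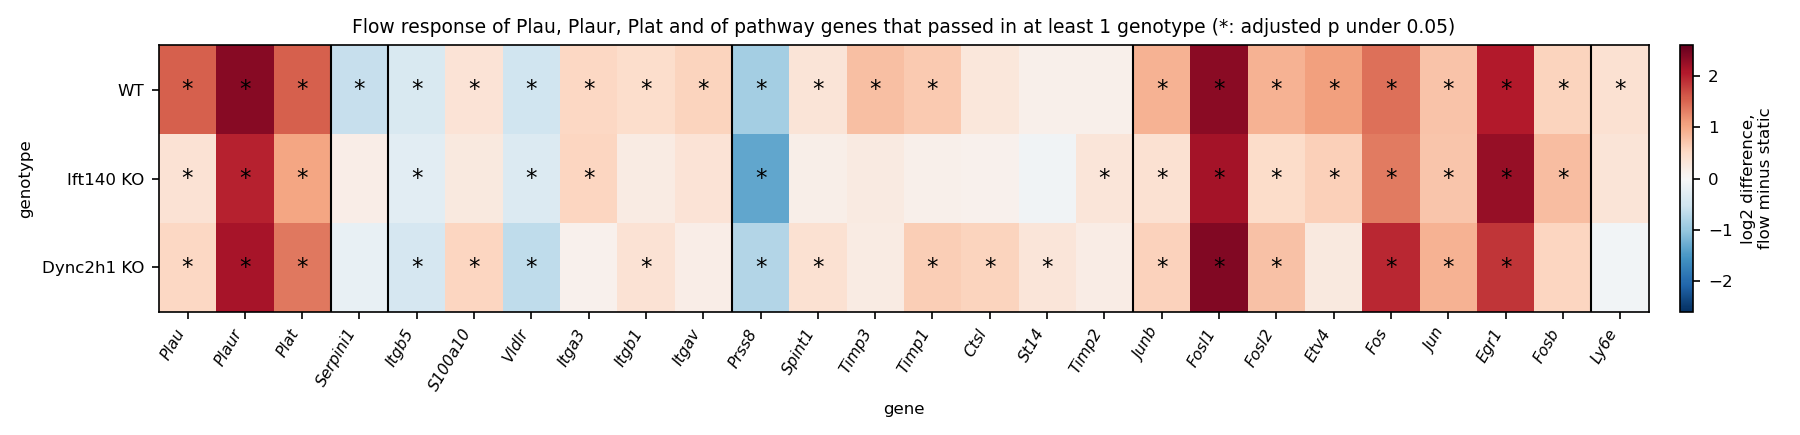
Log2 difference of scaled TPM + 1 between flow and static libraries (color) for Plau, Plaur, Plat and the named pathway genes (columns, with lines between the lists) in the 3 genotypes (rows), with an asterisk for an adjusted p under 0.05. Plaur and Fosl1 are deep red in all 3 rows (1.99 to 2.40), and Prss8, Itgb5 and Vldlr are blue throughout.

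The genes of most like pattern were found by the root mean square difference of centred log2 profiles over the 18 libraries, among 9824 genes with a mean of at least 5 TPM. Of the 5 nearest to each gene, 4 are given. For Plau these were Rnd1 (0.25), Tnfaip2 (0.27), Smox (0.34) and Slc6a9 (0.35). Tnfaip2, for example, was at 12.7 ± 1.53 and 28.5 ± 2.66 TPM in WT, 14.7 ± 0.812 and 29.5 ± 2.82 in the Ift140 knockout and 35.7 ± 0.0948 and 76.4 ± 2.37 in the Dync2h1 knockout, static and flow. Unlike Plau, its flow response did not pass as different from WT in either knockout (-0.15 and -0.03, limma adjusted p of 0.850 and 0.974). The nearest profiles of Plau were thus farther from it than those found for Plat.

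For Plaur the list was Gdf15 (0.19), Dusp2 (0.24), Epha2 (0.24) and Fosl1 (0.27). Gdf15, which encodes a stress-induced cytokine, had flow responses of 2.47 in WT and 2.27 in the Dync2h1 knockout, near those of Plaur. For Plat it was Tmem171 (0.13), Ppp1r15a (0.17), Plk2 (0.18) and Cldn4 (0.19). Tmem171 went from 9.94 ± 0.276 to 27.1 ± 3.79 TPM in WT, from 13.1 ± 1.03 to 30.9 ± 5.97 in the Ift140 knockout and from 17.4 ± 0.571 to 48.2 ± 4.89 in the Dync2h1 knockout. The 3 genes themselves were less alike, at 0.82 between Plau and Plaur, 0.47 between Plau and Plat and 0.44 between Plaur and Plat. These values share the libraries and are descriptions only. Over 17 libraries, without the one labelled Ift140 knockout flow replicate 3, 3 of the 4 genes given for Plau and 4 of 4 for each of Plaur and Plat remained among the nearest 5. Of these 12 genes, 9 were matched in the RefSeq promoter table. TGANTCA was in 1 of these, Cldn4, against 6.75% of all windows, and GGGCGG in 7, against 32.7%. TGACGTCA was in 3, Epha2, Plk2 and Ppp1r15a, against 1.55%. A gene was counted if any of its windows held the motif, so gene counts and window shares are not alike. These matches too are letters only.

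Most genes next to the 3 loci gave no call under flow, as was so for most genes tested. Among all genes, higher and lower calls made up 10.2% and 10.3% in WT. These shares were 9.21% and 8.27% in the Ift140 knockout and 10.8% and 8.15% in the Dync2h1 knockout. The neighbours were called no more often than that. Of the 12 nearest tested genes, 2 on each side of each locus, 2 passed in WT. Vcl, the gene of vinculin, which lies 86013 bases from Plau, rose by 0.77 (SE 0.11, limma adjusted p = 0.000113), and Ap3m2, 4510 bases from Plat, fell by 0.56 (adjusted p = 0.0425). In the Ift140 knockout Vcl rose by 0.33 (adjusted p = 0.0463) and Zfp428, 31038 bases from Plaur, fell by 0.41 (adjusted p = 0.0183). In the Dync2h1 knockout Cadm4, 6055 bases from Plaur, rose by 0.51 (adjusted p = 0.0333), and Vcl was at 0.04 (adjusted p = 0.841). The Vcl response there differed from that in WT by -0.73, with a limma adjusted p of 0.0496, close to the threshold. In the Ift140 knockout that difference was -0.44 (adjusted p = 0.437). Both calls for flow in the Ift140 knockout were lost without the library labelled flow replicate 3, with Vcl at 0.17 (adjusted p = 0.155) and Zfp428 at -0.30 (adjusted p = 0.0687). In static culture Vcl, like Plau, was higher than in WT in both knockouts. The differences were 0.51 in the Ift140 knockout and 0.56 in the Dync2h1 knockout (limma adjusted p of 0.00423 and 0.00120). Zfp428 was higher in both as well, by 0.62 and 0.50 (adjusted p of 0.00108 and 0.00310). Ap3m1 was higher in the Dync2h1 knockout (0.35, adjusted p = 0.0481), and Gm27592, near Plaur, was lower in the Ift140 knockout (-1.89, adjusted p = 0.0221). Of all genes, 8.97% were higher in the static Ift140 knockout and 13.5% in the static Dync2h1 knockout. Camk2g, the nearest neighbour of Plau on its other side, did not pass for flow in any genotype (0.04, 0.07 and 0.08). Vcl overlaps its neighbour Ap3m1 on the other strand, and reads from overlapping genes may not be told apart.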

How the data were processed

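Per the labels, total RNA from 18 samples of IMCD3 cells was sequenced, 3 libraries in each of 6 groups. Per the submitters' processing notes, FastQC 0.11.5, Bowtie2 2.1.0 and RSEM 1.2.31 were used, with builds mm10 and GRCm38.p5 named; settings, strandedness and the annotation release are not given in the sources used here. The signal deposited by the authors is TPM per gene name, read as such from the values, whose gene rows sum to 1000000 in each library; a row holding that total was left out. Read depth cannot be recovered from TPM, its effect on precision is unknown, and no counting interval is given.

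Libraries were scaled by a trimmed mean of log ratios (30% of ratios and 5% of abundances trimmed, no weights; factors 0.890 to 1.13) over the 16718 genes kept by a filter (1 TPM or more in 3 libraries or more). Factors from all gene names were tried first. After their results were seen, the factors were taken from the filtered genes, as in an earlier treatment of these data, and this changed the call of Plau in the Ift140 knockout. limma 3.58.1 in R 4.3.3 was fitted to log2(scaled TPM + 1) with 6 group means, 12 residual degrees of freedom and a mean-variance trend. Fold changes on this scale understate changes of low genes. Genes passed at a Benjamini-Hochberg adjusted p under 0.05 over all genes tested. The script was tested on simulated data.

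The 3 genes, the gene lists and the tests were chosen with earlier results of these data known. Named are the 3 genes, up to 8 genes per list that passed in a flow comparison, the 5 genes of most like pattern to each gene (4 are printed), 2 neighbours on each side and the targeted genes. Genes under the filter, Anxa2, Mmp2, Ets1, Rela, Klf2 and Klf4 lie outside this rule and were singled out after their values were seen. Coordinates come from GENCODE vM21 (GRCm38) and promoter sequence from a RefSeq table (GRCm38.p6) in which 1 of the 3 genes was matched. Some genes that these lists and this rule cover are not reported here. Alternatives changed the scaling, filter, pseudocount, trend, libraries fitted and replicate block. No 2 libraries of a group held the same value for more than 1.40% of the genes at 1 TPM or more in 3 libraries.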

Additional observations from a re-analysis of the deposited data

Results flagged for a closer look

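The following flow responses differed between a knockout and WT by the limma test of the difference itself, over all genes. For Plau the difference was -1.18 (SE 0.15, adjusted p = 0.00222) in the Ift140 knockout and -1.01 (SE 0.15, adjusted p = 0.00328) in the Dync2h1 knockout. Over the 27 alternatives the first ran from -1.28 to -1.09 with adjusted p from 0.00126 to 0.0382, and the second from -1.14 to -0.92 with adjusted p from 0.00172 to 0.0152.

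Calls near the threshold were less steady. For Junb the difference was -0.51 (adjusted p = 0.0275) in the Ift140 knockout, a limma call lost in 12 of 27 alternatives (-0.55 to -0.48, adjusted p from 0.0177 to 0.165). For Cldn4, a claudin gene, it was -0.85 (adjusted p = 0.0368) in the Ift140 knockout, lost in 19 of 27 (-0.92 to -0.72, adjusted p from 0.0261 to 0.174). For Etv4 it was -0.82 (adjusted p = 0.0456) in the Dync2h1 knockout, lost in 18 of 27 (-0.94 to -0.74, adjusted p from 0.0177 to 0.137). All of these differences share the WT libraries.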

How the results depend on the processing

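The 39 results on Plau, Plaur and Plat were recomputed under 27 alternatives: 1035 of 1053 values kept their direction and side of the threshold, 18 lost a call and 0 reversed. Most alternatives left out 1 library, often outside the groups compared, where a fitted difference can move little. Results that were not called also count as kept. With the compared groups alone in the fit, Plau lost its call for flow in the Ift140 knockout (0.37, limma adjusted p = 0.106) and for the Ift140 knockout against WT under flow (-0.49, 0.0929), and Plaur for the Dync2h1 knockout against WT under flow (0.41, 0.0610). That Plaur call was also lost with the deposited scaling (0.28, 0.107) and without the filter (0.41, 0.0671). Scaling factors from all gene names were tried first and became an alternative after the data were seen. With them Plau for flow in the Ift140 knockout was 0.35 (0.0508). Leaving out each library in turn gave 0.30 to 0.46 for that Plau result, 0.32 to 0.58 for that Plaur result, 0.35 to 0.45 for Plat in the static Ift140 knockout against WT and 0.44 to 0.57 for Plaur between the static knockouts. The cause was not tested.

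Values near 0 turned sign for Itga3 in the Dync2h1 knockout with the deposited scaling (-0.018). For flow in the Ift140 knockout, Ctsl ran from -0.027 to 0.29 (lowest without its flow replicate 2) and St14 from -0.17 to 0.062 (highest without its flow replicate 3) when a library was left out. The deposited scaling moved the median of all genes from 0.00 to -0.13 in the Dync2h1 against the Ift140 knockout under flow.

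Short list counts moved as single genes crossed the threshold. The 1 inhibitor that fell in WT became 0 with the deposited, median-of-ratios and all-name scaling, without the filter, with the 5 TPM filter, with a pseudocount of 0.5 and with only the compared groups, and 0 to 1 without a library. The 1 receptor-like gene that rose in WT became 0 with the deposited scaling, without the filter and with only the compared groups. Without a library, 0 to 1 of that list rose or fell in WT and 0 to 1 rose in the Ift140 knockout. In the binding and clearance list, the 1 that rose in the Ift140 knockout became 2 with the deposited scaling and 0 with only the compared groups (1 to 2 without a library). The 2 that fell there became 1 without the filter, without the trend and with the replicate block, and 0 with only the compared groups (1 to 3). In the Dync2h1 knockout the 2 that rose became 1 with the deposited scaling (1 to 2), and the 2 that fell became 4 with only the compared groups (2 to 4). The 1 partner gene that rose in the Ift140 knockout became 0 with the deposited scaling, without the filter, without the trend, with only the compared groups and with the block (0 to 2), and 1 to 2 fell in WT. Of the transcription factors, with only the compared groups 3 instead of 8 rose and 0 instead of 1 fell in the Ift140 knockout, and 0 to 1 fell in the Dync2h1 knockout without a library.

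Over all genes, replicate numbers did not meet the rule for pairing the samples: same-numbered libraries deviated together with r from -0.0633 to 0.169, over 0.1 in 3 of 9 pairs, and 4 of 9 were closest to their own number. For Plaur and Plat alone, replicate 1 was the highest library in 6 and 5 of the 6 groups. A replicate block changed no call on Plau, Plaur or Plat (Plau response differences -1.18 and -1.01, adjusted p of 0.00789 and 0.00880). It changed the genes called for the response difference of the Ift140 knockout and WT from 38 to 22, and of the 2 knockouts from 18 to 4. The deposited scaling gave 19 and 10. With only the compared groups these were 6 and 3, that of the Dync2h1 knockout and WT went from 81 to 152, flow in the Ift140 knockout from 2922 to 604, the Ift140 knockout against WT under flow from 2550 to 616 and the 2 knockouts under flow from 5514 to 2843. Without a library the differences gave as few as 12, 42 to 160 and as few as 3, and flow in the Dync2h1 knockout 2111 without its static replicate 1. Over the 6 group means, 2 of the 4 genes given as most like Plat remained, and with the library labelled replicate 3 of the Ift140 knockout under flow left out, a setting added after the data were seen, 4 of 4.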
